A study of Mus musculus with 6 samples.

Results

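The growth hormone and IGF axis of the liver was described here by 10 genes listed by name: Ghr, Stat5b, Socs2, Cish, Bcl6, Igf1, Igfals, Igfbp1, Igfbp2 and Igfbp3. All 10 stood among the 20914 genes of the deposited count table, and all 10 passed the filter on low counts. RNA of mouse liver was sequenced in 3 libraries labelled DOX and 3 labelled PBS, and the comparison was DOX against PBS. All 6 libraries carry the genotype BucheKI/KI-Hep, have S10D, CKI and Alb-Cre in their names, and are labelled with BDL treatment, so DOX or PBS is the only labelled difference. Alb-Cre is a recombinase driven by the albumin promoter, which is active in hepatocytes. In work on mouse liver BDL is a common short form of bile duct ligation, but the labels explain none of BucheKI, CKI, S10D, BDL and DOX, and they give no age, strain or sex. Whether each library is a separate animal is not stated, so the p-values reflect library-to-library spread that may be partly technical.

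Pituitary growth hormone binds the receptor encoded by Ghr on hepatocytes, which activates the kinase JAK2 and the transcription factor STAT5B. STAT5B induces Igf1, Igfals and the feedback inhibitors Socs2 and Cish. IGF1 leaves the liver and circulates mostly in a complex with IGFBP3 and the acid-labile subunit encoded by Igfals, while IGFBP1 and IGFBP2 bind IGF1 in smaller complexes. Igfbp1 is known as a gene that insulin represses, and Igfbp2 as one that rises in fasting and low growth hormone action.

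Promoter windows of RefSeq (build GRCm38.p6, 250 bases before to 50 after a start site) were matched by symbol for 9 of the 10 genes, Socs2 not among them. The windows shown are chosen because they hold matches to the motifs searched, 1 of the insulin-repressed gene Igfbp1 and 3 with STAT5-type letters, of Cish, Igfals and Bcl6. Each is written 5′ to 3′ on its gene's strand, in lower case with motif matches in capitals. In the Igfbp1 window (chr11:7197537-7197836, plus strand) the capitals mark CAAAACA and, on the other strand, CAAAATA, searched on both strands as the letters of the insulin response element that FOXO factors bind.
Igfbp1: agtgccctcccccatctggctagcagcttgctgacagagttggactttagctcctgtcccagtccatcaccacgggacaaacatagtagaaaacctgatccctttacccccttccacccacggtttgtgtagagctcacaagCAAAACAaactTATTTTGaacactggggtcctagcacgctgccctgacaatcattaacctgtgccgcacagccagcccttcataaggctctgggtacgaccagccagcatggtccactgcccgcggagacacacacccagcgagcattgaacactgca
In the other windows the capitals mark TTCNNNGAA, the palindromic letters of a STAT5 site, in Cish (chr9:107296409-107296708, plus strand), in the second of 3 windows of Igfals (chr17:24877981-24878280, plus strand) and in the second of 2 windows of Bcl6 (chr16:23981234-23981533, minus strand).
Cish: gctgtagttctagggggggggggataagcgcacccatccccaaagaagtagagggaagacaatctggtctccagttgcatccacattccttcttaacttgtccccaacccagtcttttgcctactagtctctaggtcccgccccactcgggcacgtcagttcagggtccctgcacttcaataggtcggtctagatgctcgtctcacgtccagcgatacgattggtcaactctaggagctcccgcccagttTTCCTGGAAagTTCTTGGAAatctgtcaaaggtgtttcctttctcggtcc
Igfals: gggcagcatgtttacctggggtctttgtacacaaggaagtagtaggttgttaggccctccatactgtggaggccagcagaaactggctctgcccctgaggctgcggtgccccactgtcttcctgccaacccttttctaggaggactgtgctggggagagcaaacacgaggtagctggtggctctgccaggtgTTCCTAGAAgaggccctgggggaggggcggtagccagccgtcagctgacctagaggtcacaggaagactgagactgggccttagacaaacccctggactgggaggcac
Bcl6: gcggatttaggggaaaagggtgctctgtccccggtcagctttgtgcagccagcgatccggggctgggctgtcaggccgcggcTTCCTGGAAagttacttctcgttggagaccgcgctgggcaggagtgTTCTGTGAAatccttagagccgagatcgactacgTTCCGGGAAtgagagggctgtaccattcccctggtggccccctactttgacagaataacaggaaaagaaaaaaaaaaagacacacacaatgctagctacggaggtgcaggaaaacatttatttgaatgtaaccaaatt
Of 32841 promoter windows of that length, 8.30% held TTCNNNGAA and 0.457% held it at least 2 times, as the Cish window did with 2 matches and this Bcl6 window with 3. CAAAACA was in 6.28% of the windows, CAAAATA in 4.36% and both in 0.472%. In Igfbp1 they begin at -108 and -97 relative to the start site, and in Igfals the match begins at -58. The first windows of Bcl6 and Igfals held 1 match to TTCNNNGAA each, and the third of Igfals 0. The windows of Igf1, itself a STAT5B target, and those of Ghr, Stat5b, Igfbp2 and Igfbp3 held 0 matches to any of these motifs. These matches describe letters and are not measured binding sites.

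The libraries held 32826493 to 41102844 gene counts. Levels are given as CPM, the read count relative to the TMM-scaled library total, unless FPKM is named, which divides by 1 length per gene and by the unscaled library total. Bche, which encodes butyrylcholinesterase and to which the genotype name may refer, stood at 969, 448 and 595 CPM in DOX and at 193, 245 and 194 CPM in PBS. This 3.18-fold difference did not pass with edgeR's quasi-likelihood test (adjusted p = 0.106) and passed with DESeq2 (adjusted p = 2.9e-08). The edgeR threshold thus left a difference of that size uncalled. Albumin transcripts (Alb) made up 10.1%, 6.09% and 10.2% of the DOX counts and 4.87% to 5.81% of the PBS counts. The Alb difference, 1.79-fold in CPM, did not pass with edgeR (adjusted p = 0.457) and passed with DESeq2 (adjusted p = 0.0181). Hepatocyte markers were abundant in all libraries, with a summed level over 9 genes of 102404 to 156858 CPM in DOX and 88987 to 99505 CPM in PBS, 6 of the 9 with a positive log2 fold change and a median of 0.10. Without Alb the sum over the other 8 was 41770 to 47624 CPM in DOX and 38759 to 43363 CPM in PBS, and the groups overlapped. The summed level of 10 cholangiocyte markers was 146 to 279 CPM in DOX and 293 to 434 CPM in PBS, and all 10 had a negative log2 fold change. The summed level of 10 endothelial markers was 116 to 228 CPM in DOX and 46.7 to 147 CPM in PBS, lowest in PBS replicate 2, and all 10 had a positive one. Of all genes tested, 47.0% had a positive one. In both marker sets 0 genes passed (edgeR quasi-likelihood, lowest adjusted p = 0.216 for cholangiocyte and 0.404 for endothelial markers). DESeq2 called 1 of the cholangiocyte markers, lower in DOX, and 0 of the endothelial ones, where it called 1.19% of all genes. Without overlap were 4 cholangiocyte markers, lower in DOX, and 1 endothelial marker, higher. Among all genes tested 9.02% were lower and 7.84% higher without overlap. In whole liver, fewer cells of a type and less RNA per cell cannot be told apart.

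None of the 10 genes of the axis passed the threshold, which at the low share of all genes called is no result about the axis. With edgeR's quasi-likelihood test and Benjamini-Hochberg adjustment over 13725 genes, 0 of the 10 genes passed an adjusted p of 0.05, against 0.0291% of all genes tested (0.0219% higher and 0.00729% lower in DOX), and the lowest adjusted p was 0.368, of Igfbp2. At an unadjusted p under 0.05 stood 3 of them, Stat5b, Igfals and Igfbp2, where 9.90% of all genes did. DESeq2 called 1 of the 10, Igfbp2, against 1.19% of genes, and limma-voom called 0. The log2 fold changes were positive for 7 and negative for 3, with a median of 0.11, against a median of -0.02 over all genes tested, 47.0% of which were positive.

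**Figure D1:**
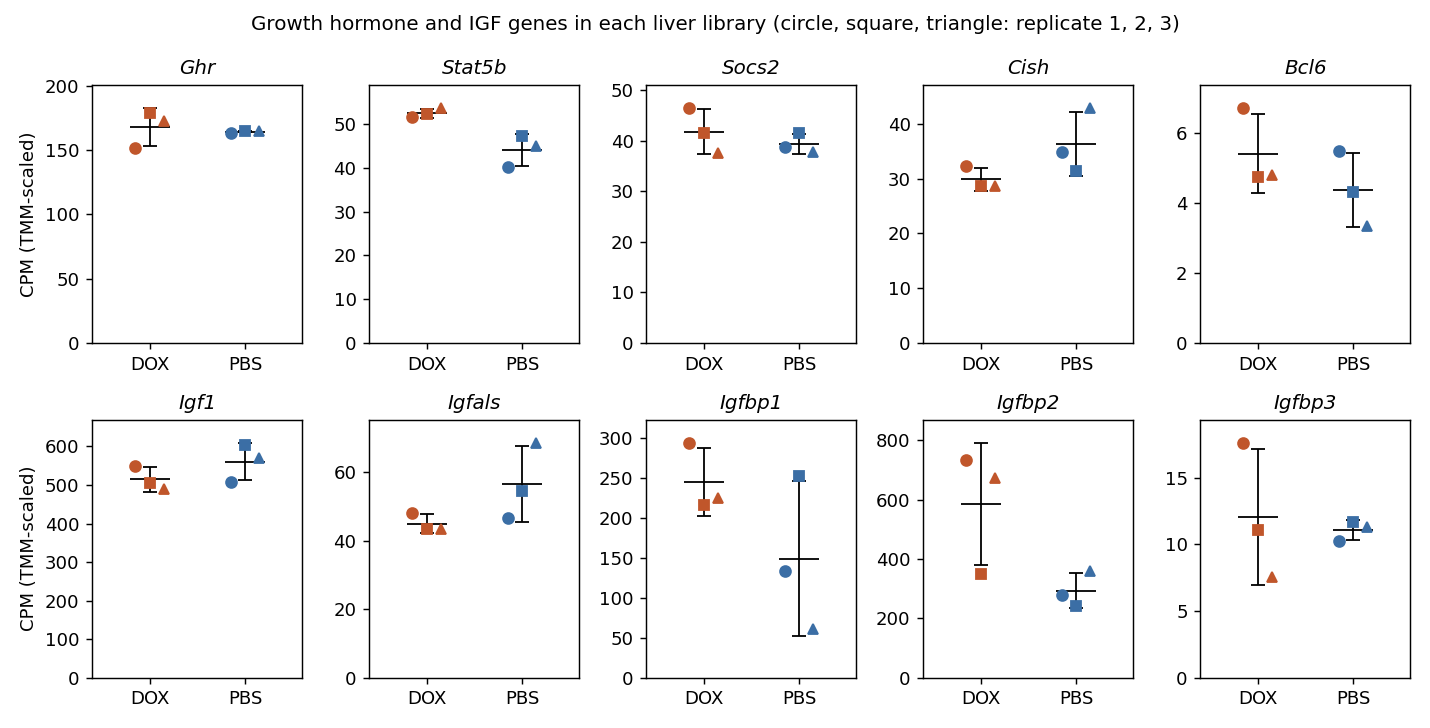
CPM of the 10 genes in each of the 3 DOX and 3 PBS libraries (points), with the mean (wide bar) and SD (whiskers) of each group on axes that start at 0. Only for Stat5b do all 3 DOX points (51.6 to 53.6 CPM) lie above all 3 PBS points (40.2 to 47.2 CPM), while Igfbp1 in PBS spreads from 61.0 to 252 CPM.

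The receptor transcript stood at like levels in both groups. Ghr (chromosome 15, 3317760 to 3583492 in GRCm38) had 151, 179 and 173 CPM in DOX and 164, 165 and 165 CPM in PBS. The DOX libraries lay on both sides of the narrow PBS range. The ratio was 1.02-fold with a 95% interval of 0.869 to 1.199-fold (edgeR quasi-likelihood, adjusted p = 0.943), and its sign turned when libraries were scaled by total counts only (log2 fold change -0.10).

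Stat5b, the main STAT of growth hormone signalling in hepatocytes (chromosome 11, 100780731 to 100850724), was the only member of the 10 whose groups did not overlap in CPM. It had 51.6, 52.4 and 53.6 CPM in DOX and 40.2, 47.2 and 45.0 CPM in PBS, where 16.9% of all genes tested had groups without overlap, 7.84% higher in DOX and 9.02% lower. Every DOX library was above every PBS library. Its log2 fold change of 0.25 (SE 0.09), a ratio of 1.19, did not pass (edgeR quasi-likelihood, adjusted p = 0.436). With total-count scaling it was 0.12. Stat5a, the neighbouring paralog 8626 bases away, had 13.5, 12.0 and 9.21 CPM in DOX and 10.5, 11.2 and 12.7 CPM in PBS. Those groups overlapped. As the 2 genes are similar in sequence and the authors' handling of shared reads is not given in the sources used here, their split is uncertain.

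Of the feedback inhibitors, Socs2 and Cish differed in sign. Socs2, whose product marks the growth hormone receptor for degradation (chromosome 10, 95385362 to 95417180), had 46.4, 41.4 and 37.5 CPM in DOX and 38.8, 41.5 and 37.7 CPM in PBS. The groups overlapped, with a ratio of 1.06-fold and a 95% interval of 0.906 to 1.25-fold, and the sign turned with total-count scaling (log2 fold change -0.04). Cish, a STAT5-induced inhibitor of the same receptor pathway (chromosome 9, 107296026 to 107302784) whose promoter holds the pair of STAT5-type letters shown above, had 32.3, 28.7 and 28.8 CPM in DOX and 34.9, 31.4 and 42.9 CPM in PBS. Only DOX replicate 1 reached into the PBS range. Its log2 fold change of -0.28 (SE 0.13) did not pass (edgeR quasi-likelihood, adjusted p = 0.5), and without PBS replicate 3 it was -0.15. Cish exons share 479 bases with the antisense gene Gm17041 and 261 with Gm17040, out of 6419, and the use of strand is not stated.

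Bcl6, a repressor that opposes STAT5 at shared sites (chromosome 16, 23965052 to 23988852), was the lowest of the 10, at 6.70, 4.73 and 4.81 CPM in DOX and 5.47, 4.30 and 3.34 CPM in PBS. In each group replicate 1 was highest, and the groups overlapped. These levels rest on 125 to 251 counts per library. For Bcl6 the log2 fold change of 0.31 (SE 0.24) had a 95% interval of -0.24 to 0.85.

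Igf1, the hormone gene itself (chromosome 10, 87858265 to 87937042), had 550.0, 504 and 489 CPM in DOX and 508, 603 and 569.8 CPM in PBS. The DOX libraries reached from below the PBS range to within it. The ratio was 0.918-fold, with a 95% interval of 0.757 to 1.11-fold (edgeR quasi-likelihood, adjusted p = 0.762). In the deposited FPKM values the groups did not overlap, with 61.5, 58.9 and 51.2 FPKM in DOX and 63.2, 70.7 and 70.8 FPKM in PBS.

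Igfals, the gene of the acid-labile subunit (chromosome 17, 24865997 to 24882010), which hepatocytes express under growth hormone control, had 48.2, 43.3 and 43.5 CPM in DOX and 46.6, 54.4 and 68.4 CPM in PBS. PBS replicate 3 was the highest library, and PBS replicate 1 lay below DOX replicate 1. The log2 fold change of -0.33 (SE 0.14) did not pass (edgeR quasi-likelihood, adjusted p = 0.497), and without PBS replicate 3 it was -0.17. On the FPKM scale Cish, Igf1 and Igfals were all lower in DOX without overlap, and Stat5b higher. That is 4 of the 10 genes, where 22.1% of all genes tested were without overlap, 19.6% lower and 2.56% higher. The groups nearly touched for Stat5b, with 6.08 FPKM in the lowest DOX and 6.04 in the highest PBS library. They also did for Cish, with 7.23 FPKM in the highest DOX and 7.37 in the lowest PBS library. Scaling by total counts moved the median log2 fold change of all genes to -0.15, so part of each lower value on that scale is shared with genes at large.

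**Figure D2:**
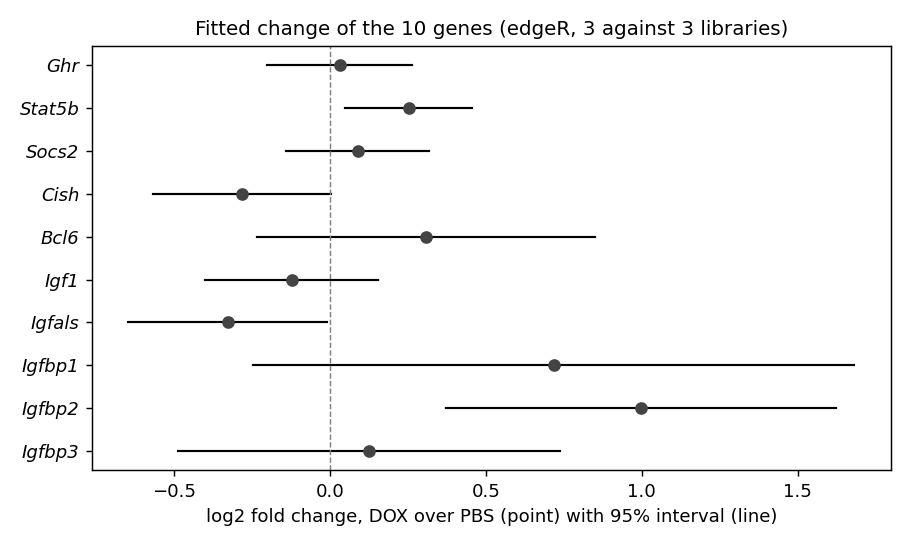
Log2 fold change of DOX over PBS for the 10 genes from the edgeR fit (points) with 95% intervals (lines). The intervals of Stat5b, Igfals and Igfbp2 do not reach 0, and none of the 10 genes passed after adjustment over 13725 genes.

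Of the 3 binding protein genes, Igfbp2 and Igfbp1 had the largest log2 fold changes of the 10 genes. Igfbp2 (chromosome 1, 72824503 to 72852474) had 732, 350.0 and 673 CPM in DOX and 278, 243 and 359 CPM in PBS. DOX replicates 1 and 3 were far above the PBS libraries, while DOX replicate 2 lay just below PBS replicate 3. DOX exceeded PBS by a factor of 1.99 (95% interval 1.29 to 3.08), which is 0.996 in log2 units (SE 0.27). It did not pass with edgeR's quasi-likelihood test (adjusted p = 0.368) and passed with DESeq2 (adjusted p = 0.0143), within a range from 0.0143 to 0.706 over all alternatives. Leaving out 1 library gave 0.81 to 1.27, always positive. The 2 libraries high in Igfbp2 were also the 2 highest in Alb, at 105048 and 113495 CPM against 60634 CPM in DOX replicate 2 and 45625 to 57734 CPM in PBS. They were the 2 highest in Bche as well. The part of either in the Igfbp2 difference was not tested.

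Igfbp1 (chromosome 11, 7197782 to 7202546), whose promoter carries the insulin response letters shown above, was the gene of the 10 with the widest range over libraries, 2.27 on the log2 scale. It had 293, 215 and 225 CPM in DOX and 133, 252 and 61.0 CPM in PBS. The DOX libraries lay close together, with an SD of 0.24 in log2 CPM, and the PBS libraries far apart, with an SD of 1.03. The log2 fold change of 0.72 (SE 0.42) did not pass (edgeR quasi-likelihood, adjusted p = 0.600). It was 0.34 without PBS replicate 3, the lowest library, and 1.33 without PBS replicate 2, the highest PBS library. The tested genes closest to Igfbp1 in their centred log2 CPM were Camk2b, Pck1 and Tent5c, with root mean square differences of 0.254, 0.311 and 0.354 over the 6 libraries, out of 11944 genes of at least 1 CPM. Pck1, the gluconeogenic phosphoenolpyruvate carboxykinase, had 2728, 3921 and 2703 CPM in DOX and 1941, 2945 and 926 CPM in PBS. Like Igfbp1, it was lowest in PBS replicate 3 and highest among the PBS libraries in replicate 2. Pck1 was chosen for its closeness to Igfbp1 over these same libraries, so this likeness is no separate support.

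**Figure D3:**
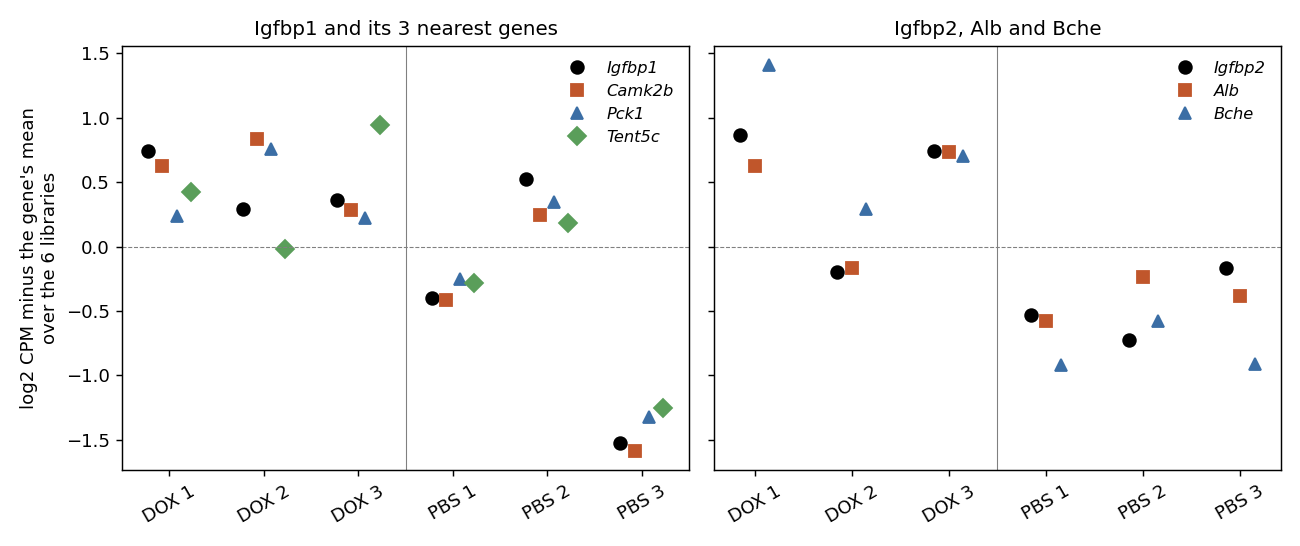
Log2 CPM of each gene minus its mean over the 6 libraries, by library, for Igfbp1 with Camk2b, Pck1 and Tent5c (left) and for Igfbp2 with Alb and Bche (right). PBS replicate 3 is the lowest library for all 4 genes on the left (61.0 CPM for Igfbp1). Camk2b, Pck1 and Tent5c were chosen for their closeness to Igfbp1 over these libraries. DOX replicates 1 and 3 are the highest for the 3 genes on the right (732 and 673 CPM for Igfbp2).

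For Igf1 the closest genes in the same measure were Rnaset2b, Sertad2 and Pip4p2, with differences of 0.0246, 0.0347 and 0.0351. Igf1 itself ranged by only 0.30 on the log2 scale, so closeness to it was a matter of small differences. Rnaset2b has a near-identical copy, and its counts are uncertain in that respect.

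Igfbp3 encodes the main carrier of circulating IGF1 and in liver is made chiefly by non-parenchymal cells. It lies next to Igfbp1, with 3539 bases between them (chromosome 11, 7206086 to 7213923). It had 17.6, 11.05 and 7.56 CPM in DOX and 10.2, 11.7 and 11.3 CPM in PBS. The DOX libraries spread around the narrow PBS range. The log2 fold change of 0.12 (SE 0.27) turned to -0.25 without DOX replicate 1. The summed level of 10 Kupffer cell and macrophage markers had the same order in DOX, with 1203, 1035 and 904 CPM, but the opposite order in PBS, with 1085, 940.4 and 1051 CPM. That of 10 stellate cell and fibroblast markers was 519, 447 and 211 CPM in DOX and 348, 218 and 435 CPM in PBS. That of 10 endothelial markers, at 228, 116 and 213 CPM in DOX and 147, 46.7 and 142 CPM in PBS, followed Igfbp3 in neither group. None of these markers had 0 counts in any library, and their part in the Igfbp3 levels was not tested.

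Levels between genes were compared per length, in FPKM, with the lengths implied by the deposited values, 1520 bases for Igfbp1 to 13085 for Socs2. For Stat5b, Socs2 and Igfbp3 these lengths exceed the exon bases of GENCODE M21, so the place of those genes depends on the length used. In DOX the order from the top was Igfbp2, Igfbp1, Igf1, Ghr, Igfals, Cish, Stat5b, Socs2, Igfbp3 and Bcl6, and it was the same in PBS. In DOX, Cish and Stat5b overlapped, as did Socs2 and Igfbp3, and the other neighbours were separate in all libraries. In PBS, Igfbp2 (142 to 223 FPKM) overlapped Igfbp1 (42.8 to 167 FPKM), which overlapped Igf1 (63.2 to 70.8 FPKM), whereas in DOX Igfbp2 (204 to 409 FPKM), Igfbp1 (134 to 185 FPKM) and Igf1 (51.2 to 61.5 FPKM) stood apart.

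Set against each other within a library, the hormone and its small binding proteins had different proportions in the groups. The ratio of Igf1 FPKM to the sum of Igfbp1 and Igfbp2 FPKM, which does not depend on the scaling between libraries, was 0.1035, 0.1701 and 0.1055 in DOX and 0.2374, 0.2285 and 0.2669 in PBS. All 3 DOX libraries were below all 3 PBS libraries. This ratio was chosen with the values known and is given without a test. The ratio of Igfals to Igf1 was 0.315, 0.309 and 0.320 in DOX and 0.330, 0.324 and 0.432 in PBS, nearly touching between the groups.

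Among Igfbp1 to Igfbp7, the largest share of FPKM fell to Igfbp4, which encodes a binding protein of hepatocytes and other cells, with 39.3%, 50% and 41.0% in DOX and 58.6%, 57.8% and 55.8% in PBS. In CPM its own level hardly differed, at 1470 ± 91.9 in DOX and 1574 ± 155 in PBS (SD, n = 3 each). The log2 fold change of Igfbp4 was -0.10 with a 95% interval of -0.42 to 0.22. In FPKM it was lower in DOX without overlap, at 462, 457 and 382 against 512, 540 and 471 in PBS. On that scale 19.6% of all genes tested were lower without overlap. Igfbp2 took 34.8%, 22.4% and 37.7% in DOX and 19.8%, 15.2% and 26.3% in PBS. Igfbp1 took 15.8%, 15.6% and 14.3% in DOX and 10.7%, 17.9% and 5.07% in PBS. Igfbp3, Igfbp5 and Igfbp6 each stayed under 1% in every library.

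**Figure D4:**
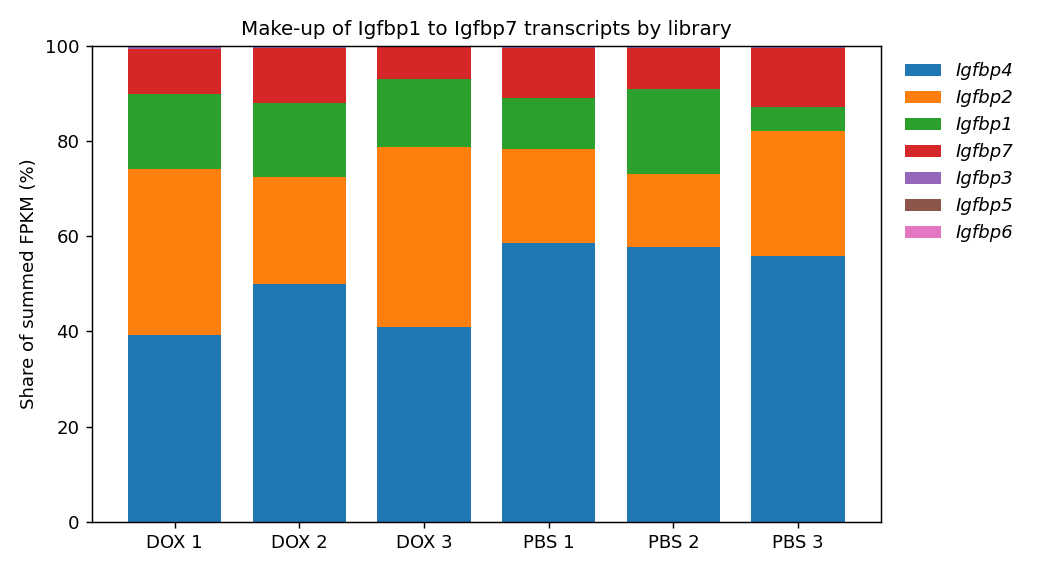
Shares of Igfbp1 to Igfbp7 in their summed FPKM, in percent, for each library. Igfbp4 takes 39.3% to 50% in DOX and 55.8% to 58.6% in PBS, and the segments of Igfbp3, Igfbp5 and Igfbp6 are too thin to be seen.

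The rest of the pathway was read from 6 gene lists. Over all genes tested, 0.0291% passed with edgeR, 47.0% had a positive log2 fold change and 16.9% had groups without overlap. At that share, 0 passing genes in a list is no result about its genes. In list order, genes without overlap numbered 0, 1, 1, 1, 0 and 1 higher in DOX. Those lower in DOX numbered 1, 0, 1, 0, 3 and 1. Most genes named are those of smallest p in their list, a choice that favours groups without overlap. Of 14 further genes of growth hormone receptor and JAK-STAT signalling, 0 passed in either direction (edgeR quasi-likelihood), 6 had a positive and 8 a negative log2 fold change, and the median was -0.01. The smallest p belonged to Sh2b1, an adaptor that binds JAK2, with 33.9, 34.4 and 36.2 CPM in DOX and 42.2, 39.3 and 42.0 CPM in PBS. Its groups did not overlap (log2 fold change -0.24, SE 0.08, adjusted p = 0.418 with edgeR). Prlr, the prolactin receptor and a relative of Ghr, averaged 109.6 ± 4.98 CPM in DOX and 88.6 ± 17.5 CPM in PBS, and Socs3, an inhibitor induced by cytokines, 33.1 ± 12.0 CPM in DOX and 48.3 ± 15.8 CPM in PBS. Neither passed (edgeR, adjusted p = 0.509 and 0.569).

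Of 17 listed genes of the wider IGF system in the table, 14 were tested and 0 passed in either direction, with a median log2 fold change of 0.08 and 8 positive values. With total-count scaling that median was -0.06, and without DOX replicate 1 it was -0.006. Igf1r, the IGF1 receptor, which is scarce in adult hepatocytes, averaged 1.89 ± 0.628 CPM in DOX and 3.004 ± 0.716 CPM in PBS (log2 fold change -0.67, SE 0.31, edgeR adjusted p = 0.512). Its smallest PBS library (2.38 CPM) lay below the largest DOX library (2.56 CPM). For Igf2bp3, whose product binds the IGF2 messenger, the log2 fold change was 0.66 (SE 0.39, edgeR adjusted p = 0.605). For Stc2, whose product inhibits the IGFBP-cleaving protease pappalysin, it was 0.56 (SE 0.35, edgeR adjusted p = 0.623). Both rest on few counts, 30 to 94 per library for Igf2bp3 and 14 to 31 for Stc2. On the log2(FPKM + 1) scale the values were 0.05 for Igf2bp3 and 0.11 for Stc2. Insr, the insulin receptor, differed little, at 110 to 118 CPM in DOX and 116 to 118 CPM in PBS. Igf2, an abundant liver transcript only before and shortly after birth, stayed at or under 0.615 CPM.

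In mouse liver the pulsed growth hormone of males and the steadier one of females drive different target genes. The labels give no sex, and each library held 2120 to 3044 counts of the Y-linked Ddx3y and 0 to 9 of Xist. Of 24 male-biased target genes, 18 were tested and 0 passed in either direction, with 12 positive values and a median log2 fold change of 0.25, which came to 0.08 when DOX replicate 3 was left out and to 0.07 when PBS replicate 2 was. Mup3, a major urinary protein gene, had 11.5, 13.6 and 8.40 CPM in DOX and 3.49, 5.63 and 5.64 CPM in PBS. Its groups did not overlap (log2 fold change 1.18, SE 0.24), and it passed with DESeq2 (adjusted p = 0.000787) and with edgeR on unfiltered counts (0.0311), but not with edgeR on filtered counts (adjusted p = 0.216). Cyp2d9, a male-specific steroid hydroxylase, lay the other way, with 133, 237 and 206 CPM in DOX and 282, 265 and 353 CPM in PBS (log2 fold change -0.65, SE 0.21, edgeR adjusted p = 0.418). Elovl3, a fatty acid elongase, stayed at or under 1.32 CPM in all libraries (log2 fold change 2.16, SE 0.74, edgeR adjusted p = 0.429). That value was 3.05 without PBS replicate 2 and 0.36 on the log2(FPKM + 1) scale.

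In level, 6 of the 24 male-biased genes stayed under 1 CPM in all 6 libraries and 7 stayed over 30 CPM, limits chosen after the values were seen. Among the 7 were Gstp1, a glutathione transferase, at 347 to 509.9 CPM in DOX and 369 to 442.5 CPM in PBS, and Mup20, a urinary pheromone gene, at 44.7 to 172.5 CPM in DOX and 124 to 147 CPM in PBS. For the low ones, 3 counts correspond to 0.0730 to 0.0914 CPM. Hsd3b5, a steroid dehydrogenase, had at most 0.107 CPM, Mup1 at most 0.325 CPM and Mup7 at most 0.696 CPM. Mup1, which was not tested, had 9, 11 and 3 counts in DOX and 1, 0 and 0 in PBS. Slco1a1, an organic anion transporter outside both level groups, had 11.5 CPM in DOX replicate 1 and 0 to 0.837 CPM in the other 5 libraries. Its log2 fold change of 3.68 (SE 1.29), the largest of the list, did not pass (edgeR adjusted p = 0.434). All libraries carry the BDL label, so these levels have no counterpart without it here. Mup, Cyp2d, Cyp4a and Cyp3a genes and Serpina1e belong to families of near-identical copies whose reads the counting could split or drop.

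Of 21 female-biased target genes in the table, 15 were tested and 0 passed in either direction, with 10 positive values and a median of 0.21, which turned to -0.10 without DOX replicate 3 and was 0.41 without DOX replicate 2. Abcd2, a peroxisomal transporter, had 35.3, 31.0 and 36.9 CPM in DOX and 25.7, 30.02 and 26.3 CPM in PBS, without overlap (log2 fold change 0.33, SE 0.10, edgeR adjusted p = 0.399). Cyp39a1, an oxysterol hydroxylase, averaged 65.4 ± 29.5 CPM in DOX and 39.4 ± 10.4 CPM in PBS. Cyp3a44 averaged 1.34 ± 0.900 CPM in DOX and 0.384 ± 0.289 CPM in PBS (edgeR adjusted p = 0.512 for Cyp39a1 and 0.484 for Cyp3a44). Sult2a1, a sulfotransferase specific to females, had at most 0.0303 CPM. DESeq2 called 1 gene of this list, Cyp2b9, a gene under the filter that had 3.06 CPM in PBS replicate 2 and at most 0.208 CPM in the other 5 libraries. It is named for that call, chosen after its values were seen.

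Of 12 liver transcription factors of the growth hormone response, 0 passed in either direction with edgeR, 9 had a negative log2 fold change and the median was -0.13. Onecut1, which encodes HNF6, a factor that growth hormone induces in rat liver, had 5.82, 6.38 and 3.67 CPM in DOX and 12.7, 11.045 and 10.5 CPM in PBS. Every DOX library was far below every PBS library. Its log2 fold change was -1.11 (SE 0.21), which passed with DESeq2 (adjusted p = 0.000375) and with edgeR on unfiltered counts (0.0271), but not with edgeR on filtered counts (adjusted p = 0.183). Onecut1 is also expressed in bile duct cells, and the summed level of the cholangiocyte markers was lower in DOX, as given above. Of those 10 markers, 0 passed with edgeR, and DESeq2 called 1, lower in DOX. Their part in the Onecut1 difference was not tested. Foxa2, a hepatocyte factor, had 26.6, 26.2 and 26.7 CPM in DOX and 28.3, 27.8 and 35.2 CPM in PBS. Its groups did not overlap, and it did not pass (log2 fold change -0.20, SE 0.11, edgeR adjusted p = 0.567).

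Of 11 genes of fasting, insulin action and amino acid stress, processes that bear on Igfbp1, 0 passed in either direction, with 5 positive values and a median of -0.01. Fgf21, a fasting hormone of the liver that lowers growth hormone signalling in mice, had 2.24, 1.45 and 3.19 CPM in DOX and 0.439, 1.06 and 1.23 CPM in PBS. The groups did not overlap (log2 fold change 1.34, SE 0.45, edgeR adjusted p = 0.423). Ddit3, a stress-induced transcription factor, had 4.88, 5.76 and 3.89 CPM in DOX and 5.98, 7.66 and 13.9 CPM in PBS, also without overlap (log2 fold change -0.92, SE 0.31, edgeR adjusted p = 0.423). Cpt1a, which brings fatty acids into mitochondria, averaged 325 ± 26.3 CPM in DOX and 394 ± 69.9 CPM in PBS (edgeR adjusted p = 0.569).

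**Figure D5:**
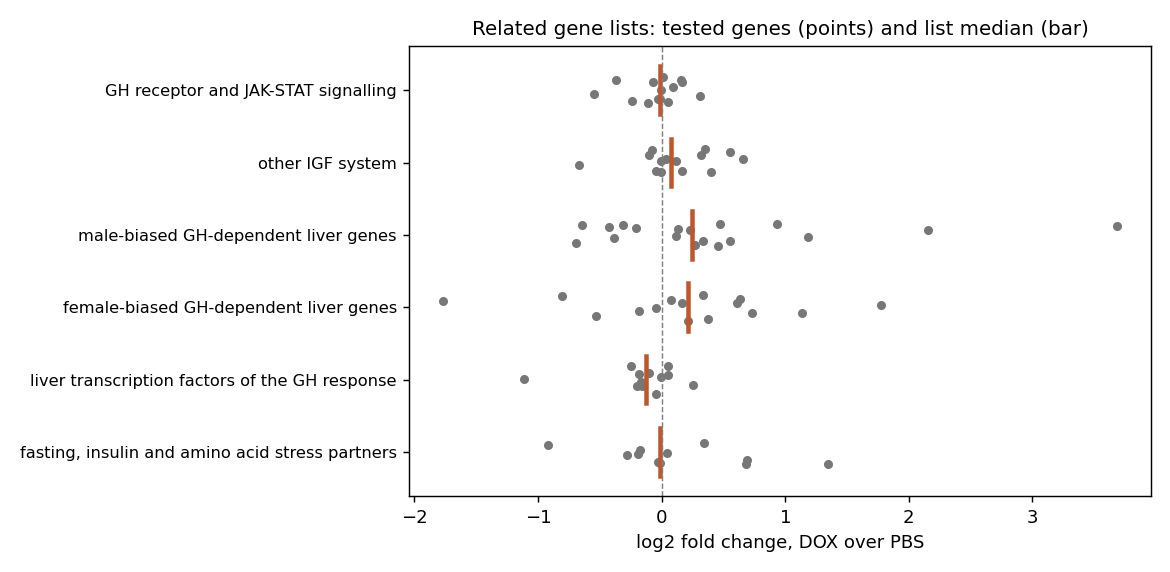
Log2 fold change of DOX over PBS for every tested gene of the 6 related lists (points, shifted vertically at random for legibility) with the median of each list (bar). The medians lie between -0.13 and 0.25, and no point passed the edgeR threshold.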

How the data were processed

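The authors deposited whole-number read counts per gene and FPKM values for the same 6 libraries, 3 DOX and 3 PBS. The builds GRCm38 and mm10 come from the submitters' processing notes, while aligner, counting tool and strand were not given in the sources used here. Dividing counts by 1 length per gene and by the library total gave the deposited FPKM for 18913 of 18913 genes with counts in at least 2 libraries (relative tolerance 1e-05).

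The counts entered edgeR 4.0.16 under R 4.3.3 (filterByExpr, TMM, quasi-likelihood test, legacy = TRUE, no block), with Benjamini-Hochberg adjustment over all 13725 genes tested at a threshold of 0.05. Standard errors and 95% intervals come from the quasi-likelihood F statistic. Alternatives used DESeq2 1.42.0 and limma 3.58.1. The fit was tested on simulated counts. Between replicates, chi-square over its degrees of freedom was 44.8 to 141.9, well above sampling noise, and every library was kept as its own sample.

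The 10 genes and all lists were chosen with earlier results of these data known. Besides them, the text names Bche, Alb, the 3 tested genes of smallest p in each list (1 of them is not reported here), and the 3 genes closest to Igf1 and to the most variable of the 10. Genes named outside this rule, chosen after their values were seen, are Igfbp4, Stat5a, Insr, Igf2, Cyp2b9, Slco1a1 and the low or abundant sex-biased genes. Ddx3y and Xist were added as a check of sex. Gene positions are from GENCODE M21. Of the listed names, Igf2bp1, Cyp2b13, Sult3a1, Hao2, G6pc1, Tf and Trac were not matched. The summed markers of neutrophils were 9.36 to 15.4 CPM in DOX and 10.2 to 25.3 CPM in PBS, and those of B and T cells 1.21 to 3.72 CPM in DOX and 1.75 to 2.49 CPM in PBS.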

Additional observations from a re-analysis of the deposited data

How the results depend on the processing

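All 10 genes stayed uncalled in each of 16 alternatives except Igfbp2 with DESeq2, where 1 of the 10 genes was called. Across all genes edgeR as described called 4, against 176 with DESeq2, 61 without the filter, 2 with limma-voom, 21 with the replicate block and 3 to 4 when 1 library was left out. For these counts and the sign changes below, the cause was not tested. Stat5b, Cish, Bcl6, Igf1, Igfals, Igfbp1 and Igfbp2 kept their sign in every alternative. So did Bche, Alb and the 3 genes of smallest p in each list, wherever these were fitted. Outside the 10 genes, further genes named in the text were not followed over the alternatives. Ghr had -0.10 with total-count scaling, -0.10 and -0.11 on log2 FPKM plus 1 and plus 0.1, and -0.010 without DOX replicate 2, in a range up to 0.11 when 1 library was left out. Socs2 had -0.041 with total-count scaling and -0.036 and -0.048 on log2 FPKM. Igfbp3 had -0.050 and -0.088 on log2 FPKM, and -0.25 to 0.37 when 1 library was left out. The list medians were taken in 15 alternatives, all but a stricter filter on low counts. They ran from -0.14 to 0.07 for receptor and JAK-STAT signalling and from -0.06 to 0.25 for the other IGF system. For male-biased genes they ran from 0.07 to 0.35, and for female-biased genes from -0.10 to 0.41. For transcription factors they ran from -0.26 to -0.05, and for fasting genes from -0.17 to 0.16. The sign of 4 of the 6 medians thus turned. The fit with legacy = FALSE, chosen after the data were seen, called 4 genes and 0 of the 10. With the replicate block 0 of the 10 were called. Deviations of same-numbered libraries correlated at 0.184, 0.122 and 0.00672, and the labels give the numbers no meaning, so these numbers were not used to pair libraries. With 3 libraries a group, the intervals of Bcl6, Igfals and the 3 binding protein genes span over 1.5-fold.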
